A study of Mus musculus with 11 samples.

Results

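The antimicrobial peptide and protein genes of the epidermis examined here were the 10 genes Defb1, Defb3, Defb4, Defb6, Camp, S100a8, S100a9, Lcn2, Slpi and Reg3g, of 52550 genes in the table. They were chosen by name as epidermal host defence genes, with earlier results of these data known, and found through their Ensembl identifiers. Only Defb6 and Defb1 passed the detection filter, a CPM (the count scaled by the library's total on genes) above 1 in at least 2 of 11 libraries, which 14419 genes passed. Together these 2 β-defensins held 7958 of the 8078 reads that fell on the 10 genes, or 98.5%. Camp, Defb4 and Reg3g had 0 reads in every library, and the other 5 genes had between 0 and 16 reads in a library.

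Antimicrobial peptides are small proteins, many of them cationic, that kill microbes or hold back their growth at body surfaces. Keratinocytes (KCs) make them, some at a steady level and others after injury, infection or exposure to cytokines such as IL-17, IL-22 and IL-1. β-defensins disrupt microbial membranes and attract cells that carry the chemokine receptor CCR6, cathelicidin (Camp) is cleaved by kallikreins to its active peptide, and calprotectin (S100a8 with S100a9) and lipocalin 2 (Lcn2) withhold metals and iron from microbes.

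The study compared huLangerin-DTA mice (LC-/-), in which the human langerin promoter drives diphtheria toxin subunit A so that Langerhans cells (LCs) are missing from birth, with wild type (WT) littermates. All mice were female and 8 weeks old. From epidermal suspensions, KCs were sorted as live CD45- MHC-II- langerin- c-kit- singlets, and dendritic epidermal T cells (DETCs), the resident γδ T cells of mouse epidermis, as CD45+ MHC-II- langerin- c-kit- cells. There were 3 WT and 3 LC-/- KC libraries and 3 WT and 2 LC-/- DETC libraries. They are written W1 to W3 and L1 to L3 in the order of the numbers in their labels, and L1 has no DETC library.

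Libraries held 13491075 to 19750440 reads on genes. A count of 0 allows up to 3 reads, which is 0.222 CPM in the library with the fewest reads. This limit and the intervals given for read counts cover counting error only. Cd207, which encodes langerin, had 6, 29 and 18 reads in WT KCs and 0 in all 3 LC-/- KC libraries. In DETCs it had 20, 20 and 48 reads in W1, W2 and W3 and 0 and 4 in L2 and L3. The 14 DETC markers summed to 8.64 to 46.2 normalized counts in KC libraries and to 238490 to 259330 in DETC libraries. The 16 keratinocyte markers summed to 654160 to 695270 in KC libraries and to 109810 to 181720 in DETC libraries, so the DETC libraries also held keratinocyte transcripts. In sorted bulk samples, fewer cells of a type and less RNA per cell cannot be told apart.

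The upstream sequences of Defb6, the most abundant of the 10 genes, and of Defb3, its near-silent neighbour in the β-defensin cluster, are shown because the first was read in every library and the other hardly at all. RefSeq gave a promoter for 8 of the 10 genes on GRCm38.p6, and Defb1 and Defb4 were not among them. Both sequences lie on the plus strand and cover the 250 bases before the gene start that RefSeq gives, which for Defb3 lies 1 base after the start in GENCODE. The Defb6 sequence is chr8:19225228-19225477 and the Defb3 sequence is chr8:19293111-19293360. Capitals mark matches to the C/EBP motif TTGCNNAA and to the NF-κB consensus.
Defb6: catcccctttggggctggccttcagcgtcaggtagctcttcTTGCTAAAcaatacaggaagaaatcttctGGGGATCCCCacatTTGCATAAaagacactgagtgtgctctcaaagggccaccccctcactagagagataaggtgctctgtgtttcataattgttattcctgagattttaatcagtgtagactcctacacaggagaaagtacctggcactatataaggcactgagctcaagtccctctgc
Defb3: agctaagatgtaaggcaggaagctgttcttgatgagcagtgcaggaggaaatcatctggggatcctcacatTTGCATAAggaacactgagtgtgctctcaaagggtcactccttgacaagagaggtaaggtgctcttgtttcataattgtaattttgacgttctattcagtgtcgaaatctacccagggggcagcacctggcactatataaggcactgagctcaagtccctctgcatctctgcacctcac
Aligned with free ends, the sequences were identical at 194 of 239 columns (81.2%), with 5 gap columns. The C/EBP motif was found 209 and 166 bases before the Defb6 start and 179 bases before the Defb3 start. The NF-κB consensus was found in the Defb6 sequence 180 bases before the start, where the same 10 bases match on both strands, and these matches do not overlap. Over both strands, 9.56% of 32851 RefSeq promoters of this length held the C/EBP motif and 7.25% the NF-κB consensus. The exact letters TATAAA, the AP-1 motif TGANTCA and the STAT motif TTCNNNGAA were in neither sequence, and were in 12.4%, 6.75% and 7.02% of promoters. Both sequences hold TATATAAG, which the search for TATAAA does not match. These matches describe letters only.

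Defb6 had 834, 839 and 1141 normalized counts in the WT KC libraries W1, W2 and W3. It had 959.6, 1058 and 789 in the LC-/- KC libraries L1, L2 and L3. The genotypes overlapped, with the highest value in a WT library and the lowest in an LC-/- library. The WT mean was 938 ± 176 and the LC-/- mean 935 ± 136 (SD, n = 3 each). The log2 fold change of LC-/- over WT was 0.0011 (SE 0.17, 95% interval -0.43 to 0.43, limma adjusted p = 1.0). A change of up to 0.43 in either direction lies within this interval.

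Defb6 was also among the genes with the highest level per exon length in KCs. Its level in WT KCs was 212 ± 38.2 RPKM (CPM per kilobase of exon, SD, n = 3), above 98.6% of the 14419 tested genes. In LC-/- KCs it was 194 ± 32.6 RPKM (SD, n = 3), above 98.4% of them. Defb6 lies at chr8:19225478-19228209 on the plus strand, with 323 exonic bases in 2 exons, and none of its 75-base stretches occurs in another gene's transcripts.

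Defb1, the defensin best known for steady expression in epithelia, was lower than Defb6 per exon length in every library. Normalized counts were 217, 206 and 339 in WT KCs (W1, W2, W3) and 206, 191 and 144 in LC-/- KCs (L1, L2, L3). Values of both genotypes met near 206, and W3 was the highest for Defb1 as it was for Defb6. The means were 254 ± 73.7 in WT and 180 ± 32.4 in LC-/- KCs (SD, n = 3 each). Its log2 fold change was -0.47 (SE 0.24, 95% interval -1.09 to 0.15), which did not pass the test (limma adjusted p = 0.289). Over libraries left out the log2 fold change ran from -0.60 (without W2) to -0.24 (without W3). With the count tests it was -0.50 in edgeR (adjusted p = 0.105) and -0.49 in DESeq2 (adjusted p = 0.0704).

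Per exon length the level of Defb1 was 21.3 ± 5.97 RPKM in WT and 13.8 ± 2.76 RPKM in LC-/- KCs (SD, n = 3 each). That is above 85.6% and 78.6% of tested genes. Defb1 lies at chr8:21776599-21795185 on the plus strand, with 872 exonic bases in 2 exons.

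Of the 10 genes, 0 were called higher and 0 lower in LC-/- KCs, 2 being testable. The background in KCs was 5.37% of tested genes called higher and 1.85% called lower. By limma 0 members had an unadjusted p below 0.05 in KCs, while edgeR and DESeq2 each gave 1, Defb1, and 0 after adjustment. Of 14419 tested genes, 2123 higher and 1776 lower had such a p in edgeR, and 1923 and 1334 in DESeq2.

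**Figure D1:**
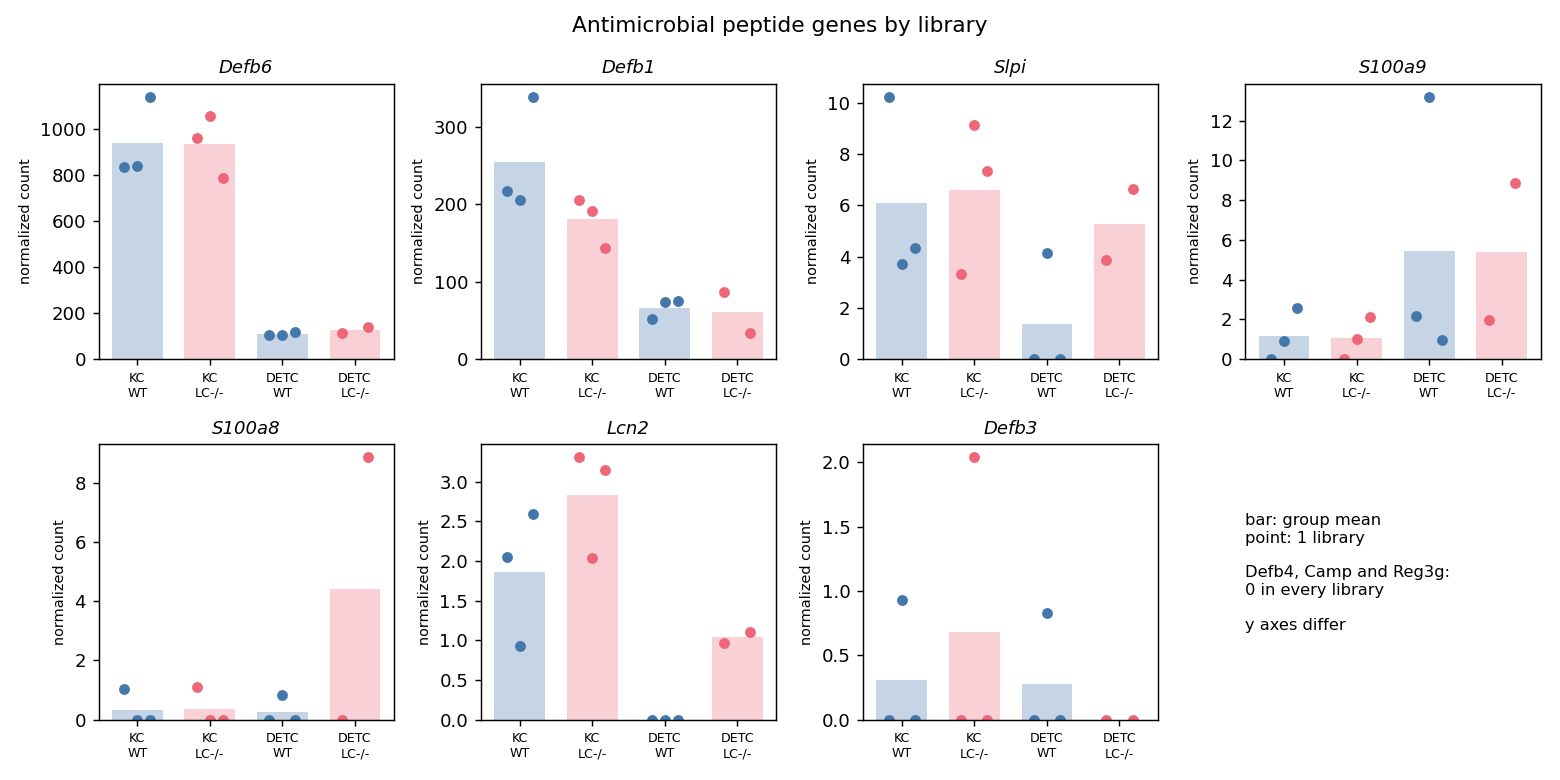
Normalized counts (vertical axes, scaled separately for each gene) of the 7 genes with any read, in KCs and DETCs of WT (blue) and LC-/- (red) mice. Points are libraries and bars are group means. Defb6 reaches 1141 and Defb1 339 in KCs, while the other 5 genes stay below 14 in every library.

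Because both genes were read in each library, their ratio per exon length does not depend on the scaling between libraries. Defb6 exceeded Defb1 10.4, 11.0 and 9.09 times in the WT KC libraries W1, W2 and W3. The ratio was 12.6, 14.9 and 14.8 in the LC-/- KC libraries L1, L2 and L3. The genotypes did not overlap in KCs. The log2 difference between genotypes was 0.47, with p = 0.1 in a two-sided exact permutation test, the smallest p that 3 against 3 libraries can give. This ratio was chosen after its values were seen. In DETCs the ratio was 5.51, 3.82 and 4.21 in W1, W2 and W3 and 3.58 and 11.1 in L2 and L3, so the genotypes overlapped (two-sided exact permutation p = 0.8). Over single genes, the normalized counts of the genotypes did not overlap for 31.5% of tested genes in KCs and 37.9% in DETCs.

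**Figure D2:**
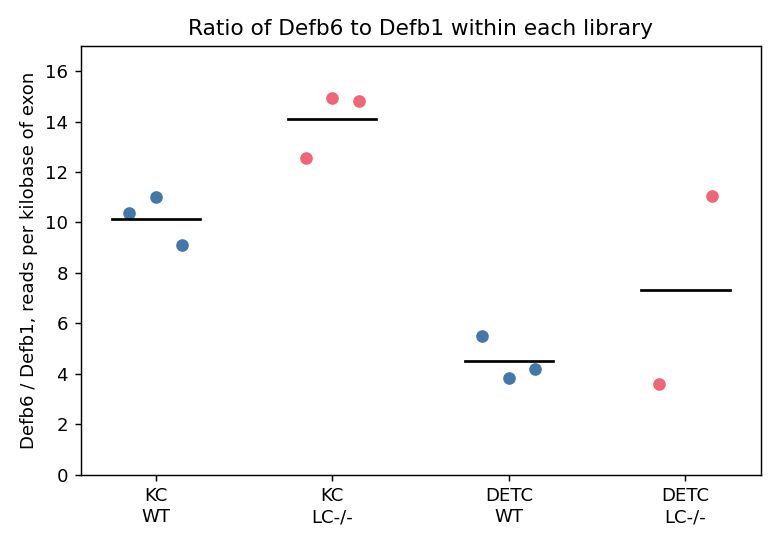
Ratio of Defb6 to Defb1 in reads per kilobase of exon (vertical axis) for each library, by population and genotype. Points are libraries and lines are group means. KC ratios run from 9.09 to 11.0 in WT and from 12.6 to 14.9 in LC-/- mice. DETC ratios run from 3.58 (L2) to 11.1 (L3).

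In DETC libraries both β-defensins were read at lower levels. Defb6 had 105, 104 and 117 normalized counts in WT (W1, W2, W3) and 115 and 140.4 in LC-/- DETCs (L2, L3). L3 was the highest and the other LC-/- library lay within the WT range. Its log2 fold change of LC-/- over WT was 0.23 (SE 0.18, 95% interval -0.19 to 0.64, limma adjusted p = 0.545), and it was 0.080 without L3 and 0.37 without L2. Defb1 had 51.3, 73.4 and 74.9 in WT and 86.4 and 34.3 in LC-/- DETCs. The 2 LC-/- libraries lay on either side of the WT range. The log2 fold change of Defb1 was -0.26 (SE 0.39, 95% interval -1.16 to 0.64, limma adjusted p = 0.773). It was 0.39 without L3 and -0.92 without L2.

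Of the 10 genes, 0 were called in either direction in DETCs, against 3.13% of tested genes called higher and 0.43% lower. These shares come from 452 and 62 genes, and quantile normalization gave 178 and 85. The number of members with an unadjusted p below 0.05 was also 0 by limma, edgeR and DESeq2. The difference between the changes of the 2 populations was 0.22 (SE 0.22, adjusted p = 0.779) for Defb6 and 0.21 (SE 0.46, adjusted p = 0.92) for Defb1 on the log2 scale. Neither passed the interaction test, which called 0.798% of all tested genes. By limma, edgeR and DESeq2 alike, 0 members had an unadjusted p below 0.05 for the interaction.

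Both defensins were higher in KCs than in DETCs. In WT libraries Defb6 was 8.50-fold lower in DETCs (log2 fold change -3.09, SE 0.13, adjusted p = 2.7e-08) and Defb1 3.73-fold lower (log2 fold change -1.90, SE 0.22, adjusted p = 3.7e-05). For both, all 3 WT DETC libraries lay below all 3 WT KC libraries. Of all tested genes 35.1% were called lower and 41.0% higher in WT DETCs, 5059 and 5906 genes, so a call of this kind was common. Quantile normalization moved that split to 6658 lower and 4693 higher and the median of all genes from 0.07 to -0.24 on the log2 scale, and with it Defb6 was at -3.39 and Defb1 at -2.22.

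Keratinocyte markers gave the level at which KC transcripts were read in DETC libraries. The WT DETC mean was 11.6% of the WT KC mean for Defb6 and 26.2% for Defb1. The 16 keratinocyte markers had a median of 15.9%, with a range from 9.32% (Krt1) to 171% (Lor), and 14 of the 16 were called lower in WT DETCs. In LC-/- mice the values were 13.6% for Defb6, 33.4% for Defb1 and a median of 20.8% for the markers. Among DETC libraries the summed markers were highest in L2 (181720), where Defb1 was also highest, while Defb6 was highest in L3, where the sum was 120140. The part of KC transcripts in the defensin reads of DETC libraries was not tested.

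**Figure D3:**
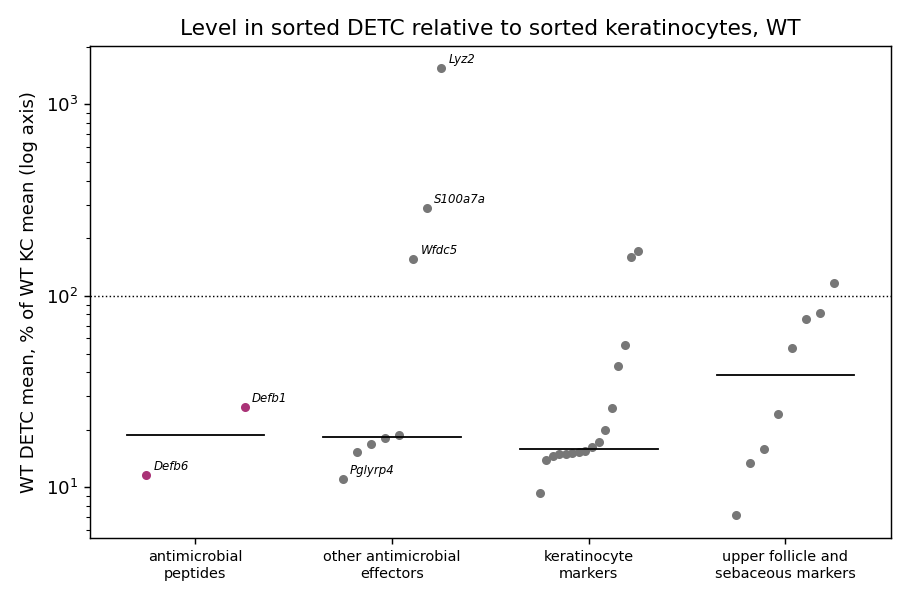
Mean normalized count in WT DETCs as a percentage of the mean in WT KCs (log axis) for tested genes of 4 lists. Points are genes, lines are list medians and the dotted line marks 100%, and Pglyrp1, which had 0 reads in WT KCs, is left out. Defb6 (11.6%) and Defb1 (26.2%) lie within the range of the keratinocyte markers.

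Of the other β-defensins among the members, Defb3, whose product is induced in epithelia by infection, had 1 read in WT KCs (W2), 2 in LC-/- KCs (both in L2), 1 in WT DETCs and 0 in LC-/- DETCs. This came to 0.0228 CPM in WT KCs (95% exact Poisson interval 0.000577 to 0.127) and 0.0469 CPM in LC-/- KCs (0.0057 to 0.17). Defb4, the mouse relative of human β-defensin 2, had 0 reads in all groups, with an upper limit of 0.084 CPM in WT KCs and 0.0866 CPM in LC-/- KCs. Defb4 lies at chr8:19198706-19201545 and Defb3 at chr8:19293360-19295291, on either side of Defb6. Neither shares a 75-base stretch with the transcripts of another gene, Defb6 included. Of the 42 genes of the table named Defb with a number, 31 had 0 reads. Defb1 and Defb6 held 99.3% of the 8014 reads of all 42, and the other 9 with reads held 56, at most 17 for Defb14.

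Slpi, an inhibitor of serine proteases that also kills microbes, had 10, 4 and 5 reads in WT KCs and 3, 9 and 7 in LC-/- KCs, a sum of 19 in each. In DETCs it had 0, 5 and 0 reads in the WT libraries and 4 and 6 in the LC-/- libraries. The ranges overlapped in both populations. Lcn2, which binds bacterial siderophores, had 2, 1 and 3 reads in WT KCs and 3, 2 and 3 in LC-/- KCs. In DETCs it had 0 reads in the 3 WT libraries and 1 read in each of the 2 LC-/- libraries. All Lcn2 values were at or under the limit of 3 reads, so no fold change is given.

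The calprotectin genes had reads mainly in 2 DETC libraries. S100a9 had 2, 16 and 1 reads in WT DETCs (W1, W2, W3) and 2 and 8 in LC-/- DETCs (L2, L3), against 0 to 3 in KC libraries. S100a8 had 8 reads in the DETC library L3 and 0 or 1 in each of the other 10 libraries. Neutrophils and other myeloid cells carry much S100a8 and S100a9. Of 15 neutrophil markers, Retnlg had 14 reads in L3 and 0 to 5 in the other DETC libraries, and Csf3r had 13 in W2 and 1 to 5 in the others. Ly6g had 0 reads in every library but the DETC library L2, and Elane and Ngp had 0 in all libraries. The summed level of the 15 markers was 87.3 to 119 normalized counts in WT and 39.8 to 124 in LC-/- DETCs, with Mmp9 at 19.4 to 88.3 of it, and 17.6 to 40.0 in KCs. Of the 15, 2 passed the filter. Mmp9 was called higher in WT DETCs than in WT KCs, and Stfa1 lower, at 1.54% of the WT KC mean. At 0 in all libraries of a group were 5 of the 15 in WT and 5 in LC-/- DETCs. The part of neutrophil transcripts in the S100a8 and S100a9 reads was not tested.

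Camp, the cathelicidin precursor, and Reg3g, a C-type lectin that binds Gram-positive bacteria, had 0 reads in all 11 libraries. Over the 3 WT KC libraries 0 reads allow up to 0.084 CPM for each gene at 95% confidence, and over the 2 LC-/- DETC libraries up to 0.104 CPM. These are upper limits on the level that 0 reads allow.

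Other antimicrobial effectors were read at levels that spanned a wide range. Of 20 such genes 9 passed the filter, and their median log2 fold change was 0.06 for KCs and 0.09 for DETCs, against -0.01 and 0.02 over all tested genes. Lyz2 and Pglyrp1 had at most 3 reads over all KC libraries, which left 7 that could be called there. In KCs 1 of the 9, Adm, was called higher and 0 were called lower, against 5.37% and 1.85% of all tested genes. By limma, edgeR and DESeq2 alike, 4 of the 9 had an unadjusted p below 0.05 in KCs. Such a p was found by limma for 2116 genes higher and 1683 lower among all tested. Adm encodes adrenomedullin, a vasoactive peptide that also has antimicrobial activity. It had 766.5, 792 and 828 normalized counts in WT KCs and 1160, 1138 and 1079 in LC-/- KCs. The genotypes did not overlap, as for 31.5% of tested genes in KCs, and the fold change was 1.41 (log2 0.50, SE 0.046, adjusted p = 0.0193).

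In DETCs 0 of the 9 effectors were called by limma, edgeR or DESeq2, and 1 had an unadjusted p below 0.05 with each tool. Of 14419 tested genes, 1882 higher and 893 lower had such a p by limma in DETCs. In the limma fit the largest values belonged to Lyz2, lysozyme 2 of myeloid cells, and Pglyrp1, a peptidoglycan recognition protein. The log2 fold change of Lyz2 was -1.22 (SE 1.30, adjusted p = 0.67), but 0.31 in edgeR and -0.19 with a pseudocount of 8. Lyz2 had 18.6, 7.43 and 16.5 normalized counts in WT and 0 and 36.5 in LC-/- DETCs, so the genotypes overlapped, and the means were 14.2 in WT and 18.2 in LC-/- DETCs. Its highest value was in L3, the library with the S100a8 reads, and without L3 the only LC-/- library left was L2, at 0 reads (adjusted p = 0.0342, the lone library taken to vary like the others). Pglyrp1 had 76.4, 85.8 and 104 in WT and 54.4 and 59.7 in LC-/- DETCs, without overlap, as for 37.9% of tested genes in DETCs. Its log2 fold change was -0.62 (SE 0.22, adjusted p = 0.173). In WT DETCs 5 of the 9 effectors were called lower than in WT KCs, among them Pglyrp3 and Pglyrp4, and 4 were called higher, among them Pglyrp1 and S100a7a. Per exon length, Pglyrp4 in WT KCs (21.3 RPKM) stood beside Defb1, and Rnase4, a ribonuclease with antimicrobial activity, at 106 RPKM.

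**Figure D4:**
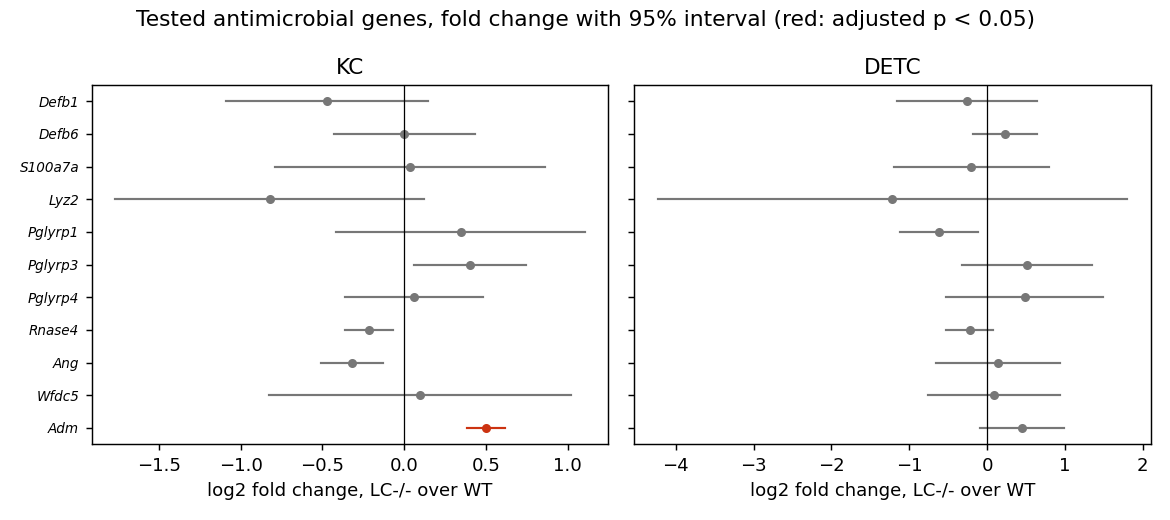
Log2 fold change of LC-/- over WT (horizontal axes, separate scales) with 95% intervals in KCs (left) and DETCs (right) for the 2 tested members and 9 other effectors. Red marks an adjusted p below 0.05. Adm in KCs (0.50) is the gene marked, and the intervals of Defb1 and Defb6 include 0 in both populations.

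Among 18 cytokines and growth factors that induce or restrain antimicrobial peptides, 13 were tested. In KCs 2 were called higher and 1 lower, against 5.37% and 1.85% of all tested genes. Il17a, Il22 and Ifng had 0 reads and Il17f 1 read over all KC libraries and passed the filter through DETCs alone, and over the other 9 the median log2 fold change was 0.44. Il1rn, the antagonist of the IL-1 receptor, had 1819, 1880.1 and 1825 normalized counts in WT and 2840.2, 2733 and 3165 in LC-/- KCs (log2 fold change 0.66, SE 0.061, adjusted p = 0.0193). Tgfa, a ligand of the EGF receptor, had 1504, 1340.3 and 1600.0 in WT and 2093, 2176 and 2005 in LC-/- KCs (0.50, SE 0.075, adjusted p = 0.0294). Both genes were higher in all 3 LC-/- libraries than in any WT library. Genotypes did not overlap, in either direction, for 31.5% of tested genes in KCs.

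Tnf was called lower in KCs. It had 179, 193 and 237 normalized counts in WT and 122, 105 and 127 in LC-/- KCs (log2 fold change -0.77, SE 0.14, adjusted p = 0.0426). The KC values did not overlap between genotypes, as for 31.5% of tested genes in KCs. In DETCs Tnf had 2579, 2875 and 2727 in the WT libraries and 2638 and 3264 in the LC-/- libraries. The DETC values overlapped between genotypes. In DETCs 1 of the 13, Areg, was called higher and 0 lower by limma and by edgeR, with a list median of 0.59. The limma shares over all tested genes were 3.13% higher and 0.43% lower. DESeq2 called 5 of the 13, and 868 genes higher and 211 lower among all 14419 tested. By limma 10 of the 13 had an unadjusted p below 0.05, as did 1882 genes higher and 893 lower among all tested. The log2 fold change was above 0 for 11 of the 13 and below 0 for 2, Il17a and Il17f. Il24, Il6, Il1a, Il36g, Il1rn, Tgfa and Hbegf were in WT DETCs at 9.47% (Il6) to 25.8% (Il36g) of the WT KC mean. The keratinocyte markers had a median of 15.9% there, and a median log2 fold change of 0.24 in DETCs. The part of KC transcripts in these reads was not tested. Areg encodes amphiregulin, a ligand of the EGF receptor, and had 18796, 20232 and 20201 in WT and 29731 and 29740.0 in LC-/- DETCs (log2 fold change 0.59, SE 0.11, adjusted p = 0.0323).

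Il17a and Il17f, cytokines that induce antimicrobial peptides in KCs, are given here after their values were seen. Il17a had 271, 501 and 453 normalized counts in WT DETCs and 205 and 199 in LC-/- DETCs (log2 fold change -0.96, SE 0.25, adjusted p = 0.0771). Il17f had 347, 764 and 534 in WT DETCs and 277 and 233 in LC-/- DETCs (-1.03, SE 0.29, adjusted p = 0.0979). The genotypes did not overlap for either gene, as for 37.9% of tested genes in DETCs. Neither gene passed the limma test, while DESeq2 called both (adjusted p = 0.0017 and 0.0023), as did limma without W1.

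All 25 receptors and intracellular regulators of induction were tested. In KCs 7 were called higher and 2 lower, against 5.37% and 1.85% of all tested genes, and the list median was 0.05. Rela and Nfkb1, subunits of NF-κB, had log2 fold changes of 0.78 (SE 0.075, adjusted p = 0.0193) and 0.67 (SE 0.10, adjusted p = 0.0314). Rela rose from 3269, 3017 and 3447 normalized counts in WT to 5284, 6017 and 5372 in LC-/- KCs. The IL-17 receptor subunit Il17ra rose by 0.52 (SE 0.034, adjusted p = 0.0142), from 1616, 1644 and 1721 to 2358, 2408 and 2401. Traf3ip2, which encodes the adaptor of that receptor, rose by 0.49 (SE 0.045, adjusted p = 0.0193), and Egfr by 0.58 (SE 0.11, adjusted p = 0.0446).

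The subunits Il20ra and Il20rb of the receptors for IL-19, IL-20 and IL-24 fell in LC-/- KCs. Il20rb had 1619, 1554 and 1462 normalized counts in WT and 839, 1040.0 and 891 in LC-/- KCs (log2 fold change -0.75, SE 0.091, adjusted p = 0.0228). Il20ra changed by -0.51 (SE 0.077, adjusted p = 0.0302). In DETCs Stat3, the transcription factor downstream of IL-6 and IL-22, was called higher, as were 3.13% of all tested genes. There 0 of the 25 were called lower, against 0.43% of all tested genes, and the list median was 0.17. Stat3 had 6076, 6418 and 7120.3 in WT and 11524 and 10439 in LC-/- DETCs (0.75, SE 0.10, adjusted p = 0.0168). It was also among the 7 called higher in LC-/- KCs (0.39, SE 0.048, limma adjusted p = 0.0228), without overlap of the genotypes, as for 31.5% of tested genes in KCs. Its change was not called different between the populations (limma adjusted p = 0.287 for the interaction).

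**Figure D5:**
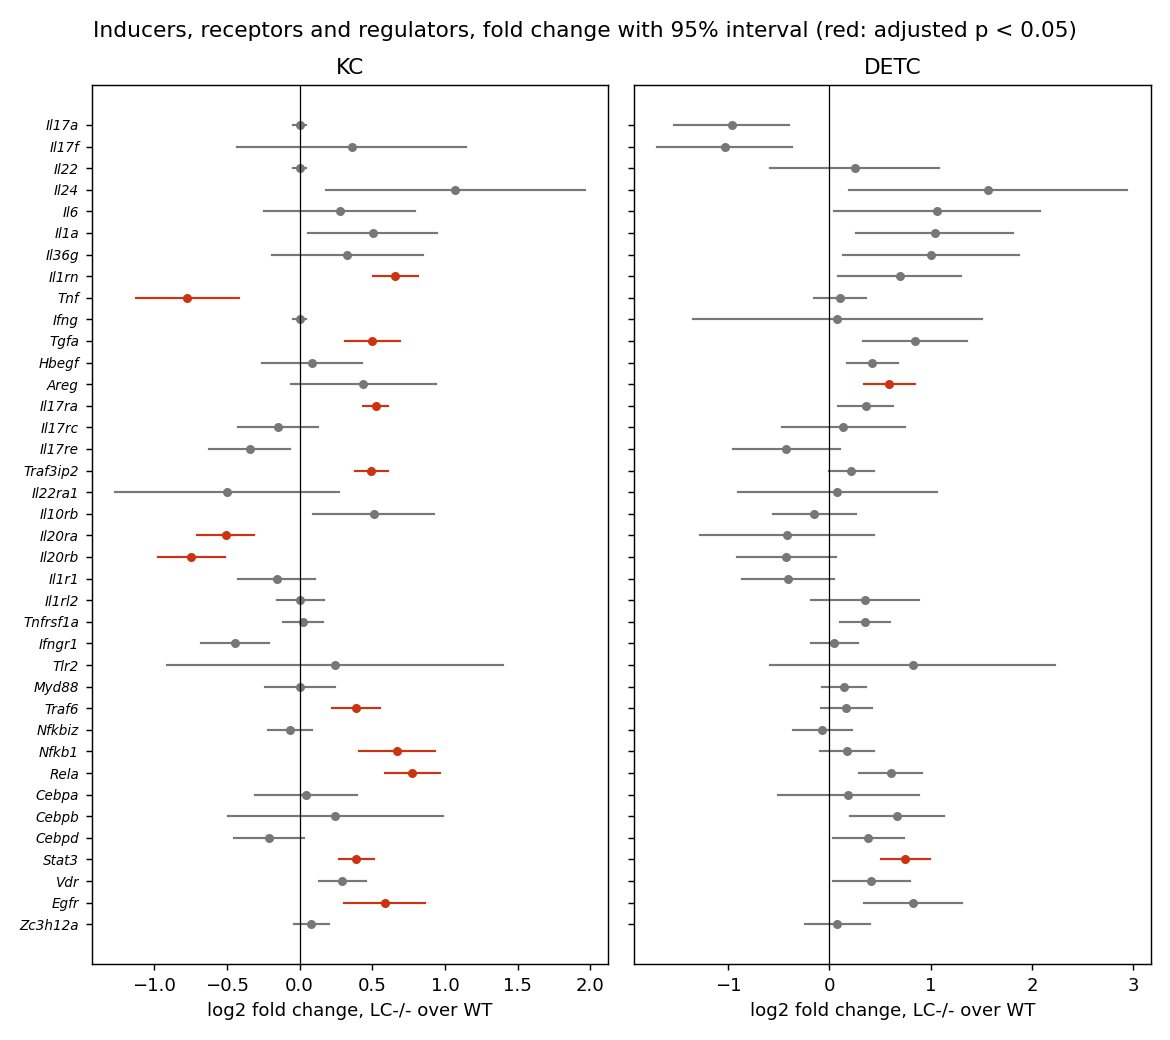
Log2 fold change of LC-/- over WT (horizontal axes, separate scales) with 95% intervals in KCs (left) and DETCs (right) for 13 inducing cytokines and growth factors and 25 receptors and regulators. Red marks an adjusted p below 0.05, which 9 genes higher and 3 lower in KCs and 2 genes in DETCs reached. Il17a, Il22 and Ifng had 0 reads in KCs and sit at 0 there.

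Of 15 receptors for the peptides and enzymes that process them, 6 were tested. Ccr6 had 0 reads in every KC library and could not be called there. In KCs 0 of the other 5 were called by limma, edgeR or DESeq2, and 1 had an unadjusted p below 0.05 with each. Of 14419 tested genes, 2116 higher and 1683 lower had such a p by limma in KCs. Klk5, a kallikrein that cleaves the cathelicidin precursor, was at -0.32 (SE 0.39, adjusted p = 0.646), and at -0.71 to -0.055 over libraries left out. Extl3, which encodes a receptor of Reg3 proteins, was at 0.20 (SE 0.061, adjusted p = 0.116), and at 0.16 to 0.26 over libraries left out. In DETCs, where 0.43% of all tested genes were called lower, 1 was called lower, Ccr6, the chemokine receptor that binds β-defensins. It had 383, 396 and 602 normalized counts in WT and 223 and 149 in LC-/- DETCs, without overlap, as for 37.9% of tested genes in DETCs. Its log2 fold change was -1.30 (SE 0.24, adjusted p = 0.0327).

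Leaving out 1 library ended many of the calls on these lists. The call of Stat3 in KCs is not counted in the numbers that follow. Of the 11 genes named as called in KCs, 0 stayed below an adjusted p of 0.05 without L1, W1 or W2, 1 without L3, 6 without W3 and 7 without L2, with adjusted p values up to 0.139 in these fits. Of the 3 named as called in DETCs, 0 stayed without L2, W2 or W3, 1 without L3 and 2 without W1, with values up to 0.195. All 14 were called by edgeR and by DESeq2. With no filter on low counts 3 of the 11 and 0 of the 3 were called.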

How the data were processed

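Poly-A RNA of sorted KCs and DETCs was sequenced in 11 libraries. The authors trimmed the reads with cutadapt, aligned them to GRCm38 with hisat2 and counted them per gene with featureCounts, and the versions are not given in the sources used here. The deposited values are a signal per gene, namely counts divided by the median-of-ratios size factor of the library computed with DESeq2. Dividing by the smallest step of each library gave whole reads for 100% of values above 0, within 0.01 reads. The table names 11 libraries and all were used.

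Genes with a CPM above 1 in at least 2 libraries were tested, which left 14419 of 52550. A pseudocount of 1 was added to the normalized count before taking log2, so fold changes of low genes are understated. Groups were compared with limma 3.58.1 (eBayes with trend, two-sided, Benjamini-Hochberg) in R 4.3.3, and a gene was called at an adjusted p below 0.05. The KC and DETC comparisons were fitted separately, the WT populations in a fit of their own, and the difference between populations as an interaction over all 11 libraries. edgeR 4.0.16 and DESeq2 1.42.0 on the recovered reads were alternatives, and all tests were tried on simulated counts. The study describes the libraries of a group as separate animals, so p-values measure the spread between these animals.

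Gene positions and exon lengths came from GENCODE mouse release M21, and promoter sequences from RefSeq on GRCm38.p6. The members and the gene lists were chosen with earlier results of these data known. Each member is described in every library. Of the lists, the genes named are those called, up to 5 per direction, or the 2 with the largest change where none was called, and 2 cytokines were added after their values were seen. The KC value of Stat3, outside the 5 named for its list, was added as well.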

Additional observations from a re-analysis of the deposited data

Results flagged for a closer look

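The change of Tnf differed between the populations by the interaction test. Tnf fell in LC-/- KCs and had a log2 fold change of 0.11 in DETCs, a difference of 0.88 (SE 0.18, adjusted p = 0.0492, limma). The adjusted p under the 20 alternatives ran from 0.000938 to 0.303 and was below 0.05 in 4 of them. No group held 4 libraries, so no library was tested for standing apart.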

How the results depend on the processing

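The counts of members called in KCs, in DETCs and by the interaction were 0, and 2 members differed between the WT populations, under every alternative run. These were pseudocounts of 0.5 and 8, no filter, a minimum mean of 10, quantile normalization, no mean-variance trend, edgeR, DESeq2, the fit over all 11 libraries for KCs and DETCs, and omission of each library. The direction of 3 member values and 1 other turned, all of them uncalled. For Defb6 in KCs the log2 fold change was -0.0027 with DESeq2, -0.0042 with edgeR and -0.049 with quantile normalization, and -0.093 to 0.15 over libraries left out. For Defb1 in DETCs it ran from -0.92 to 0.39 over libraries left out, and for the interaction of Defb1 from -0.45 to 0.86. For Lyz2 in DETCs it was 0.34 with DESeq2 and 0.31 with edgeR, and -3.83 to 1.40 over libraries left out. The cause was not tested. Of the 11 list genes named as called in KCs, Stat3 not counted, 7 stayed called with quantile normalization. In the fit over all 11 libraries 8 did, and without the mean-variance trend 10 did. Of the 3 in DETCs, 2, 3 and 0 stayed called in the same order.

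Over the whole table limma called 775 genes higher and 267 lower for KCs and 452 and 62 for DETCs. In KCs these were 1192 and 591 with edgeR, 1215 and 537 with DESeq2, 1167 and 575 with a minimum mean of 10, 419 and 214 with quantile normalization, 68 and 5 with no filter, and from 5 and 0 (without L1) to 552 and 169 (without L2) with a library left out. In DETCs they were 410 and 73 with edgeR, 868 and 211 with DESeq2, 834 and 125 in the fit over all 11 libraries, 0 and 0 with no filter or no trend, and with a library left out the number higher ran from 29 (without L2) to 478 (without L3) and the number lower from 0 (without W3) to 112 (without L3).

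The library numbers recur between KCs and DETCs, and the labels do not say what they mark. Deviations of same-numbered libraries correlated at -0.053 for W1, 0.067 for W2, 0.12 for W3 and L3 and 0.14 for L2. With groups this small and different cell types, such correlations cannot decide whether the numbers mark the same animals. The main tests did not pair the libraries. With the number as a replicate block, 0 members passed the interaction test and 2 differed between WT populations, as without it, and Tnf had an adjusted p of 0.0673 for the interaction. The interaction fit with the block also left out L1, which has no DETC library. Interaction calls over all genes were 89 higher and 26 lower in the main fit. They were 47 and 7 without L1 and with no block, and 23 and 4 with the block. Without L1 and with no block, Tnf had an adjusted p of 0.0911 for the interaction (limma). Depth limits the 8 members below the filter, for which a few reads decide the value, and 2 LC-/- DETC libraries limit the DETC comparison.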
